A study of Mus musculus with 12 samples.

Results

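Cadherins, protocadherins, contactins, neurexins, neuroligins, the L1 family and integrins are cell surface proteins that hold cells to their neighbours or to the extracellular matrix. Their messenger RNAs were followed in the developing mouse cerebellum. Members were all probe sets whose annotation gives a single gene symbol that belongs to one of these families by name, with Cdh5, a marker of endothelium, left out. A probe set is a group of short probes on the array that report on one transcript. The rule found 55 probe sets of 38 genes, out of 10855 probe sets with 1 symbol that stand for 8252 genes. By family there were 16 probe sets of 12 cadherin genes, 3 of 2 protocadherins, 3 of 3 contactins, 1 of the contactin-associated protein gene Cntnap1, 2 of the L1 family genes L1cam and Nrcam, 21 of 12 integrin alpha chains and 9 of 6 integrin beta chains. No probe set with 1 symbol matched a neurexin or a neuroligin, and these genes were not analysed here.

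RNA came from whole cerebella of 2 genotypes, euploid and Ts1Cje, at postnatal days 0, 15 and 30 (P0, P15 and P30). Ts1Cje, used to model Down syndrome, is a partial trisomy: a distal segment of mouse chromosome 16 is present in 3 copies. Strain and sex are not given in the labels. Each of the 6 combinations is 1 RNA pool, of 2 cerebella for euploid P30 and of 3 for the others. Every pool was hybridised to 2 Affymetrix arrays, which makes 12. The pool was treated as the replicate, so a stage has 1 pool of each genotype and the second array of a pool measures technical spread only. Itgb5 was the 1 member gene on chromosome 16 (positions 33829665 to 33949338, build GRCm38.p6). It lies outside the segment that is triplicated, which is distal to Sod1 at 90220762, so no member carries the extra copy itself.

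Values of log2(signal + 4.6) agreed closely between the 2 arrays of a pool, with Pearson's r between 0.968 and 0.975. This r was taken across the 7453 probe sets that passed the filter on signal given below, which are not independent replicates. Dimmer probe sets were left out of it. For the tested members the median difference between the 2 arrays of a pool was 0.24 log2 units. One pool stood apart: Xist, which silences an X chromosome in female cells, had signals of 105.6 and 77.6 on the Ts1Cje P15 arrays and 1.4 to 6.7 on the other arrays. Values without that pool are therefore given where they differ. Markers of mature cerebellar cells were present: 6 of 6 tested Purkinje cell markers rose by P15. Summed signals of the 7 on the array, tested or not, were 622 to 895 on the P0 arrays, 5953 to 7913 at P15 and 7625 to 8305 at P30. Those of 8 granule cell markers were 3085 to 3452 at P0 and 8090 to 11220 at P15. Those of 9 oligodendrocyte markers were 236 to 316 and 6104 to 6742. Because whole tissue was measured, fewer cells of a type and less RNA per cell cannot be told apart.

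Classical and type II cadherins bind the same or a related cadherin on the next cell through calcium-dependent extracellular repeats, and their cytoplasmic tails reach actin through catenins. Neurons sort into regions and layers partly by which cadherins they carry. Contactins and L1 family proteins are immunoglobulin-like molecules of axons that guide outgrowth and later organise the node of Ranvier, where myelin is interrupted. Integrins are pairs of an alpha and a beta chain that bind laminins, fibronectin and other matrix proteins, or counter-receptors on other cells.

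Signals were taken as log2(signal + 4.6), and a difference on this scale understates the change of dim probe sets. Probe sets were tested where the mean signal over all arrays was at least 20.1, which kept 7453 probe sets in all and 26 of the 55 member probe sets, of 21 genes. Stage differences were fitted with limma with genotype as a covariate, and a probe set was called at a Benjamini-Hochberg adjusted p under 0.05 over the 7453. Of the 26 tested member probe sets, 9 had a mean under 20.1 at 1 stage or more and passed through the stage where they were high (Cdh4, Cdh10, Cdh13, Cdh15, L1cam, Itga6, Itgax, Itgb4 and the dimmer tested probe set of Itgav). Counts of calls over the tested members are therefore descriptions, set beside the share of all probe sets called.

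From P0 to P15, 5 of 26 member probe sets were called higher (19.2%) and 5 lower (19.2%), beside 13.6% of all tested probe sets called higher and 14.4% lower. From P0 to P30, 8 were called higher (30.8%) and 8 lower (30.8%), beside 19.4% and 19.6%. Between P15 and P30, 1 was called higher (3.85%) and 0 lower, beside 1.61% and 3.13%. By family, the falls at P15 were all cadherins: 5 of 8 tested cadherin probe sets fell and 1 rose at both P15 and P30, with a median over the 8 genes of -0.96 at P15 and -1.47 at P30. In the same comparisons the median over all tested probe sets was -0.03 and 0.04. Of the integrins, 3 of 8 alpha chain probe sets rose by P30 and 1 fell, and 3 of 6 beta chain probe sets rose and 0 fell. P15 and P30 were compared with the same P0 pools, so these 2 comparisons are not independent of each other. Some calls needed both hybridisations. With the second arrays alone the calls of Itgb4 at P15 (adjusted p = 0.212, limma), of Itgb5 from P15 to P30 (0.159) and, from P0 to P30, of Nrcam (0.119), Itga3 (0.158), Itga6 (0.117), Itgb5 (0.0709) and Itgb7 (0.0958) were lost. With the first arrays alone those of Cdh10 at P15 (adjusted p = 0.130, limma) and of L1cam (0.415) and Itga6 (0.0619) from P0 to P30 were lost, and the call of the dimmer Itgav probe set was lost with either.

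**Figure D1:**
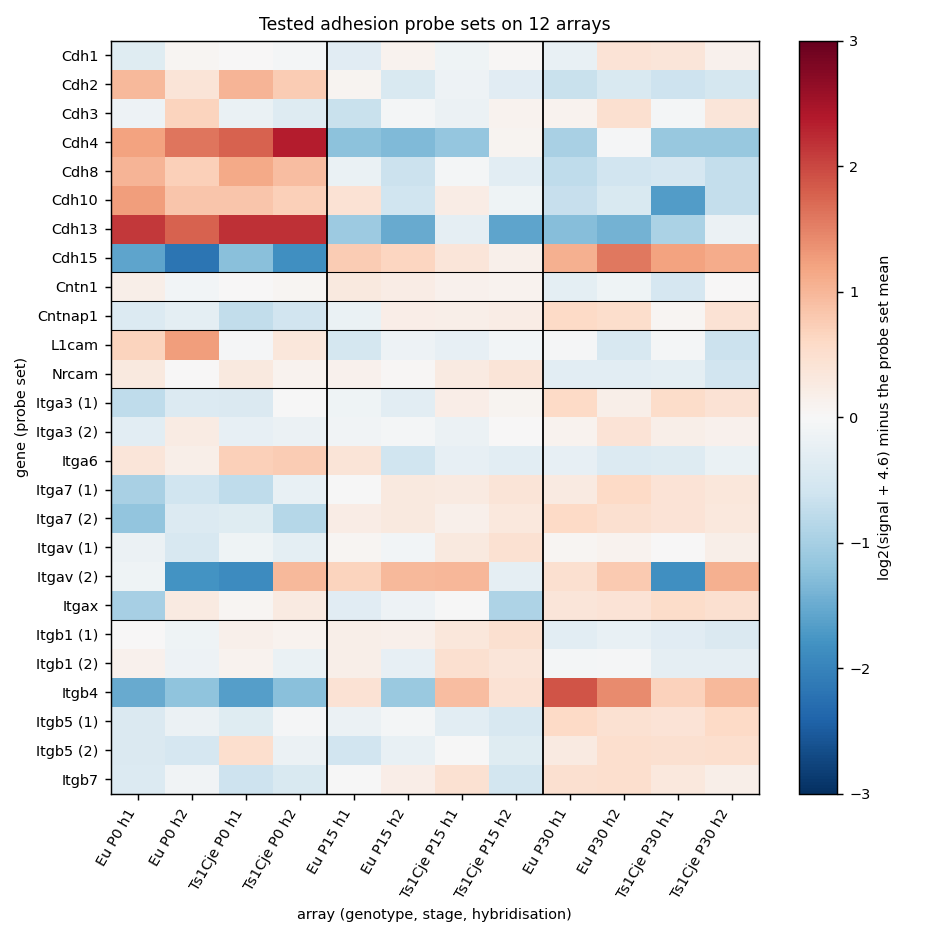
Heat map of the 26 tested member probe sets (rows, by family, with numbers where a gene has more than 1 probe set) on the 12 arrays (columns, by stage, genotype and hybridisation); colour is log2(signal + 4.6) minus the row mean. Cdh13, Cdh4, Cdh8, Cdh10 and Cdh2 are high in the 4 P0 columns, and Cdh15 and Itgb4 are low there.

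Cdh13, or T-cadherin, lacks the usual cytoplasmic tail and is held in the membrane by a lipid anchor. At P0 its signal was 73.3 and 56.4 on the euploid arrays and 76.5 and 76.5 on the Ts1Cje arrays. At P15 it was 3.7 and 1.6 in euploid and 10.2 and 1.3 in Ts1Cje, and at P30 2.7 and 2.1 in euploid and 4.6 and 11.2 in Ts1Cje. Every P0 array lay far above every later array, and the later arrays were near the floor of the signal in both genotypes. The fall was 3.19 ± 0.29 (SE) log2 units at P15 (adjusted p = 0.000155, limma, 6 pools) and 3.03 ± 0.29 at P30 (adjusted p = 0.000103). Against so low a signal the size of the fall depends on the added 4.6: at P15 it was 16.9-fold with 1 added and 4.33-fold with 16 added, called in both.

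Cdh4, or R-cadherin, is a classical cadherin of retina and brain. Its signal was 60.2 and 80.5 in euploid and 90.3 and 137.1 in Ts1Cje at P0. Later values were 7.2 and 6.5 against 7.9 and 25.0 at P15, and 9.5 and 22.7 against 8.0 and 8.0 at P30. No later array reached the lowest P0 array, while one array of a pool at P15 and one at P30 lay well above its partner. Cdh4 fell by 2.65 ± 0.35 log2 units to P15 (adjusted p = 0.000956, limma) and by 2.56 ± 0.35 to P30 (adjusted p = 0.000666). With 1 and 16 added to the signal in place of 4.6, its fall to P15 was 8.15-fold and 3.91-fold. A second Cdh4 probe set, just under the filter with a mean signal of 19.4, went from 33.2 to 62.2 over the P0 arrays to 5.1 to 15.3 at P15 and 3.3 to 15.7 at P30. The last Cdh4 probe set never exceeded 1.6.

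Cdh8 and Cdh10 are type II cadherins, which divide brain nuclei and cortical areas by their patterns of expression. Cdh8 signals at P0 were 73.9 and 58.6 in euploid and 80.9 and 68.4 in Ts1Cje, against 29.2 and 20.2 and 32.3 and 26.4 at P15. At P30 they were 18.2 and 21.4 in euploid and 22.6 and 18.9 in Ts1Cje. The genotypes ran together at each stage. Cdh8 fell by 1.25 ± 0.20 log2 units to P15 (adjusted p = 0.00229, limma) and by 1.59 ± 0.20 to P30 (adjusted p = 0.000432). Cdh10 signals were 58.3 and 42.2 in euploid and 42.4 and 38.7 in Ts1Cje at P0, then 31.4 and 12.8 against 26.1 and 19.7 at P15, then 11.7 and 14.7 against 3.7 and 11.6 at P30. Its fall was 0.92 ± 0.26 to P15 (adjusted p = 0.0317, limma) and 1.79 ± 0.26 to P30 (adjusted p = 0.000998). Between P15 and P30 Cdh10 was not called (-0.87 ± 0.26, adjusted p = 0.108, limma). Its call at P15 was lost with 1 added to the signal in place of 4.6 (adjusted p = 0.0516), with no filter on signal (0.0559) and without the euploid P0, euploid P15 or Ts1Cje P0 pool (adjusted p = 0.130, 0.225 and 0.116), and the P30 call was kept without any 1 pool.

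Cdh2, or N-cadherin, is the main classical cadherin of neural tissue. Its signal was 678.8 and 446.1 in euploid and 692.0 and 585.1 in Ts1Cje at P0. At P15 it was 364.2 and 246.5 against 304.4 and 269.5, and at P30 211.9 and 247.1 against 222.1 and 234.7. All P0 arrays lay above all later arrays. Cdh2 fell by 1.0 ± 0.15 log2 units to P15, 2.00-fold (adjusted p = 0.00146, limma), and by 1.36 ± 0.15, 2.56-fold, to P30 (adjusted p = 0.000194). It was thus still detected well above the filter at P30, unlike Cdh13.

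Cdh15, known as M-cadherin from skeletal muscle and also found at contacts between cerebellar granule cells, was the 1 cadherin that rose. Its signal was 6.3 and 2.5 in euploid and 9.1 and 4.5 in Ts1Cje at P0. It reached 50.5 and 46.5 against 37.1 and 31.4 at P15, and 63.5 and 93.4 against 70.1 and 66.3 at P30. The arrays of the 3 stages did not overlap, and at P15 the euploid arrays were the higher ones. The rise was 2.19 ± 0.25 log2 units at P15 (adjusted p = 0.000503, limma) and 2.96 ± 0.25 at P30 (adjusted p = 5.78e-05). Its P0 signals are near the floor, so the size depends on the constant added: 12-fold at P30 with 1 and 4.13-fold with 16, called in both. Granule cell markers moved in the same direction, with 7 of 8 called higher at P15 and a median of 2.03, and their part in the result was not tested. A second Cdh15 probe set, of a kind that relaxed Affymetrix's probe selection rules, stayed between 0.5 and 7.3 on all arrays.

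**Figure D2:**
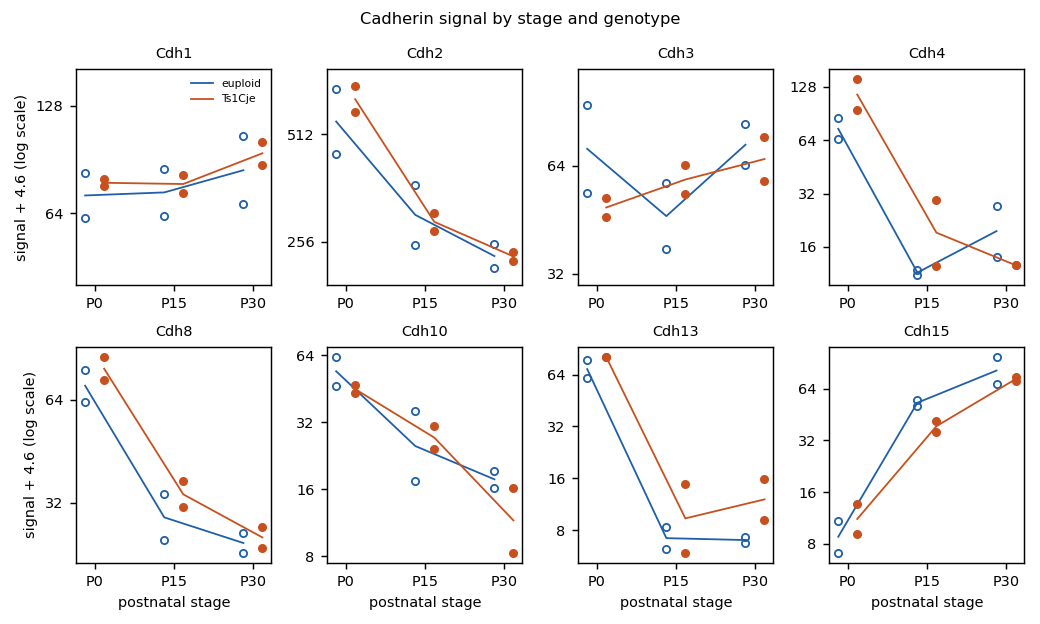
Signal + 4.6 (log axis) of the 8 tested cadherin genes by stage; open blue circles are the 2 arrays of each euploid pool, filled orange circles those of each Ts1Cje pool, and lines join the pool means on the log scale. Cdh13 drops from 56.4 to 76.5 at P0 to 1.3 to 10.2 at P15, while Cdh15 climbs from 2.5 to 9.1 at P0 to 63.5 to 93.4 at P30, values before the 4.6 is added.

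The promoters of Cdh8 and Cdh10, which fell together, and of Cdh15, which rose, are shown to set the cadherins of opposite course side by side. Each runs 5′ to 3′ from 250 bases before the annotated start to 50 bases after it and comes from RefSeq, build GRCm38.p6; 22 of the 38 member genes had an entry. The Cdh8 window is chr8:99416422-99416721 on the minus strand, the Cdh10 window chr15:18820079-18820378 on the plus strand and the Cdh15 window chr8:122848124-122848423 on the plus strand. The Cdh15 window spans the outer start of its gene, at 122848374. Those of Cdh10 and Cdh8 lie inside their genes, which begin at 18818869 and, on the minus strand, at 99417666. The 3 windows thus do not hold the same position in their genes. Capitals mark matches, on either strand, to 4 motifs, of which no 2 overlap in these windows. The TATA box, where transcription can start, was searched as TATAAA, and the CCAAT box by the letters of its name. The GC box, bound by factors of the Sp family, was searched as GGGCGG. The E-box, bound by helix-loop-helix factors, was searched as CANNTG, where N is any base.
Cdh8: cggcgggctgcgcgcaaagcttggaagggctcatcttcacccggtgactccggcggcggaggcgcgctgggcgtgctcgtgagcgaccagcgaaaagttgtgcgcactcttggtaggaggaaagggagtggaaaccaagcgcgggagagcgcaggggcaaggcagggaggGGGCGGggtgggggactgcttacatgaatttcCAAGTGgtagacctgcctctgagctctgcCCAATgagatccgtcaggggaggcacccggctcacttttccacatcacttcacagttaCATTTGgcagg
Cdh10: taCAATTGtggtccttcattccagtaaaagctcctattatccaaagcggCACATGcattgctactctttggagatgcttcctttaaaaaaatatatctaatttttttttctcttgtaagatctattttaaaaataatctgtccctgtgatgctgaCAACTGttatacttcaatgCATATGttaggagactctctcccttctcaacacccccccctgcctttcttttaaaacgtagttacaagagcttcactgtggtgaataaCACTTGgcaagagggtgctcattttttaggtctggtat
Cdh15: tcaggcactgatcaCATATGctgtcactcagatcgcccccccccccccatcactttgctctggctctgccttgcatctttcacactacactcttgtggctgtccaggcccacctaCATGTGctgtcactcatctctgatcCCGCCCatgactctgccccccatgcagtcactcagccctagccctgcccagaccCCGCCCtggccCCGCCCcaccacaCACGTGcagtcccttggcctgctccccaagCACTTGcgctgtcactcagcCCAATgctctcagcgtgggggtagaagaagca
Cdh8 holds 1 CCAAT box, 1 GC box and 2 E-boxes. Cdh10 holds 5 E-boxes and none of the others, and Cdh15 holds 1 CCAAT box, 3 GC boxes and 4 E-boxes. None of the 3 windows holds the TATA box. Among all 32851 promoter windows of that length, 13.6% hold the TATA box, 37.4% the CCAAT box, 35.7% the GC box and 72.3% an E-box. The windows of both falling genes differ in base composition, with 21 CG dinucleotides in Cdh8 and 2 in Cdh10, while Cdh15 has 7, which is also the median of all windows. A match is a description of sequence only.

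Cdh1 (E-cadherin) and Cdh3 (P-cadherin), the cadherins of epithelia, were not called in any stage comparison. Cdh1 signals were 57.7 to 78.2 at P0, 58.3 to 80.7 at P15 and 63.4 to 100.4 at P30, and its difference at P30 was 0.25 ± 0.16 (adjusted p = 0.253, limma). Cdh3 signals were 41.4 to 90.0, 32.9 to 59.7 and 53.4 to 79.2, with a difference at P30 of 0.24 ± 0.23 (adjusted p = 0.438, limma). The arrays of these 2 genes overlapped between all stages.

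The 4 cadherin genes that never passed the filter were Cdh6, Cdh9, Cdh11 and Cdh16. Cdh11, an osteoblast and mesenchymal cadherin also known in brain, lay just outside the filter at a mean signal of 19.8. Its signals were 31.5 and 23.7 in euploid and 43.5 and 40.1 in Ts1Cje at P0, and 8.8 to 16.9 on the 8 later arrays. Cdh9 signals were 7.0 to 11.7 at P0 and 1.2 to 4.1 later. Neither gene's P0 arrays overlapped with its later arrays. With no filter on signal both were called lower at P15 and P30: Cdh11 by -1.11 and -1.30 (adjusted p = 0.0315 and 0.0121, limma) and Cdh9 by -0.88 and -0.95 (adjusted p = 0.0184 and 0.00902). Under that setting the second Cdh4 probe set was called lower as well, by -1.71 and -2.12 (adjusted p = 0.0108 and 0.00271, limma), while Cdh10 at P15 was not (adjusted p = 0.0559). Cdh6 signals were 14.4 to 33.5 at P0, 6.5 to 21.1 at P15 and 10.1 to 16.1 at P30, and Cdh16, a kidney cadherin, stayed between 0.9 and 4.4.

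No protocadherin passed the filter. Pcdh7, a non-clustered protocadherin of neurons, had 2 probe sets. The brighter had signals of 26.1 and 23.8 in euploid and 30.8 and 22.5 in Ts1Cje at P0, and 4.8 to 11.9 later. The dimmer had 5.2 and 19.2 in euploid and 5.7 and 18.4 in Ts1Cje at P0, and 2.6 to 3.9 later. Both probe sets were higher on every P0 array than on any later array, and in the dimmer one the second array of each P0 pool was well above the first. With no filter they were called lower at P15 by -1.26 and -0.99 (adjusted p = 0.0115 and 0.0120, limma). Pcdh12, the other protocadherin, had signals of 2.6 to 7.0 on all arrays.

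Cntn1 (contactin 1, or F3), which with the product of Cntnap1 forms the junction of axon and myelin beside the node, had signals of 961.8 and 799.8 in euploid and 856.9 and 889.6 in Ts1Cje at P0. It had 1045.7 and 995.0 against 932.0 and 919.0 at P15, and 692.4 and 775.1 against 595.9 and 858.2 at P30. All P15 arrays lay above all P30 arrays, but the difference of -0.42 ± 0.13 log2 units did not pass (adjusted p = 0.107, limma). Cntnap1 (Caspr) moved another way, from 27.1 and 30 in euploid and 20.8 and 23.9 in Ts1Cje at P0 to 32.3 and 43.4 against 43.2 and 44.2 at P15. By P30 it had reached 58.8 and 56.2 against 39.1 and 52.3. Its rise was 0.90 ± 0.22 log2 units by P30, 1.86-fold (adjusted p = 0.0112, limma). At P15 it was 0.59 ± 0.22 and not called (adjusted p = 0.0743). The P30 call was lost without the euploid P30 or the Ts1Cje P0 pool (adjusted p = 0.108 and 0.0683). Oligodendrocyte markers rose too, 8 of 8 by P15 with a median of 4.47, and their part in the Cntnap1 result was not tested. Cntn3 and Cntn4 stayed between 0.7 and 15.7 and were not tested.

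L1cam and Nrcam, adhesion proteins of growing axons, fell by P30. L1cam signals at P0 were 39.2 and 61.7 in euploid and 22.4 and 30.3 in Ts1Cje. They were 14.5 and 20.2 against 18.8 and 21.5 at P15, and 22.5 and 15.1 against 21.9 and 13.1 at P30. The euploid P0 arrays were the highest, and a Ts1Cje P0 array overlapped with the P30 arrays. L1cam fell by 0.86 ± 0.29 log2 units to P30 (adjusted p = 0.0428, limma). Without the euploid P0 pool the fall was 0.43 (adjusted p = 0.358), and without the euploid P30 or Ts1Cje P30 pool adjusted p was 0.179 and 0.0750. With no filter on signal it was 0.0744. Nrcam differed from P0 by 0.03 ± 0.16 at P15 and was lower at P30: 239.7 and 196.7 in euploid and 240.3 and 209.2 in Ts1Cje at P0, 214.3 and 200.2 against 237.3 and 255.2 at P15, and 154.5 and 155.2 against 157.6 and 129.9 at P30. The P30 arrays did not overlap with either earlier stage. Nrcam fell by 0.55 ± 0.16 log2 units from P0 to P30 (adjusted p = 0.0236, limma), and this call was lost without any 1 of the 4 pools at P0 and P30 (adjusted p = 0.0735 to 0.310).

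Among integrin alpha chains, the genes called were the laminin-binding Itga3, Itga6 and Itga7, and Itgav in its dimmer tested probe set. Itga7, the laminin receptor chain of muscle, rose in both of its tested probe sets. The brighter had 43.5 and 56.9 in euploid and 50.7 and 75.8 in Ts1Cje at P0, 88.4 and 110.5 against 107.6 and 118.3 at P15, and 107.8 and 138.2 against 120.0 and 114.7 at P30. The other went from 29.5 to 55.7 at P0 to 82.0 to 92.9 at P15 and 92.2 to 112.6 at P30. In both, the P0 arrays lay below all others. Itga7 rose by 0.87 ± 0.17 and 0.96 ± 0.17 log2 units at P15 (adjusted p = 0.00601 and 0.00450, limma) and by 1.05 ± 0.17 and 1.16 ± 0.17 at P30 (adjusted p = 0.00164 and 0.00116). Its remaining probe set stayed between 0.8 and 4.1. The brighter probe set is marked by the maker as one that can hybridise to related sequences.

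Itga3 and Itga6, the other laminin-binding alpha chains, moved in opposite directions. Itga3 signals in the brighter probe set were 24.5 and 32.6 in euploid and 31.8 and 44.7 in Ts1Cje at P0, 40.7 and 35.1 against 51.7 and 47.8 at P15, and 70.6 and 51.4 against 67.9 and 62.2 at P30. Its rise to P30 was 0.85 ± 0.19 log2 units (adjusted p = 0.00792, limma), and it was lost without the euploid P30 pool (adjusted p = 0.107). The second Itga3 probe set, of nearly the same mean signal, ran from 35.8 to 54.4 at P0 to 49.1 to 61.9 at P30 and was not called (0.33 ± 0.18, adjusted p = 0.188). Both probe sets were thus higher at P30, by unequal amounts. Itga6 signals were 29.3 and 25.4 in euploid and 38.8 and 40 in Ts1Cje at P0, 29.7 and 12.7 against 17.8 and 16.5 at P15, and 17.7 and 15.1 against 15.6 and 18.5 at P30. It fell by 0.82 ± 0.26 log2 units to P30 (adjusted p = 0.0340, limma). That call was lost without the euploid P30, Ts1Cje P0 or Ts1Cje P30 pool (adjusted p = 0.110, 0.255 and 0.179), and with no filter on signal (0.0588).

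Itgav, the alpha chain of receptors for vitronectin and for latent TGF-beta, had a bright and a dim tested probe set. The bright probe set is marked by the maker as one that can hybridise to related sequences. The bright one had 302.4 and 244.5 in euploid and 309.7 and 277.8 in Ts1Cje at P0, 358.3 and 321.1 against 418.3 and 471.8 at P15, and 356.6 and 365.4 against 342.4 and 388.7 at P30. Its P0 arrays lay below all later arrays, but the difference of 0.45 ± 0.15 at P15 did not pass (adjusted p = 0.0584, limma). The dim one was called higher at P15 (1.30 ± 0.37, adjusted p = 0.0307). Its arrays disagreed within pools, for example 1.1 and 36.9 in the Ts1Cje P0 pool and 1.3 and 39.5 in the Ts1Cje P30 pool, and the stages overlapped. The call was lost without the euploid P0, euploid P15 or Ts1Cje P15 pool, with adjusted p up to 0.513 over all alternatives. The faintest Itgav probe set, with signals of 2.2 to 22.2, was not tested.

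Itgax (CD11c), a chain of myeloid cells, was 8.1 to 26.4 at P0, 8.9 to 20.8 at P15 and 28.1 to 33.1 at P30. All P30 arrays lay above all others, yet the difference of 0.81 ± 0.27 from P15 did not pass (adjusted p = 0.131, limma). Of 7 tested microglia markers 1 was called higher by P30. Signals of the 9 on the array, tested or not, summed to 578 to 754 on the P15 arrays and 769 to 887 on the P30 arrays. The part of microglia in this was not tested. The alpha chains of other leukocyte integrins, Itga4, Itgae, Itgal and Itgam, and the matrix receptor chains Itga2, Itga5 and Itga8 lay under the filter. Their signals were 0.5 to 20.7 on all arrays.

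**Figure D3:**
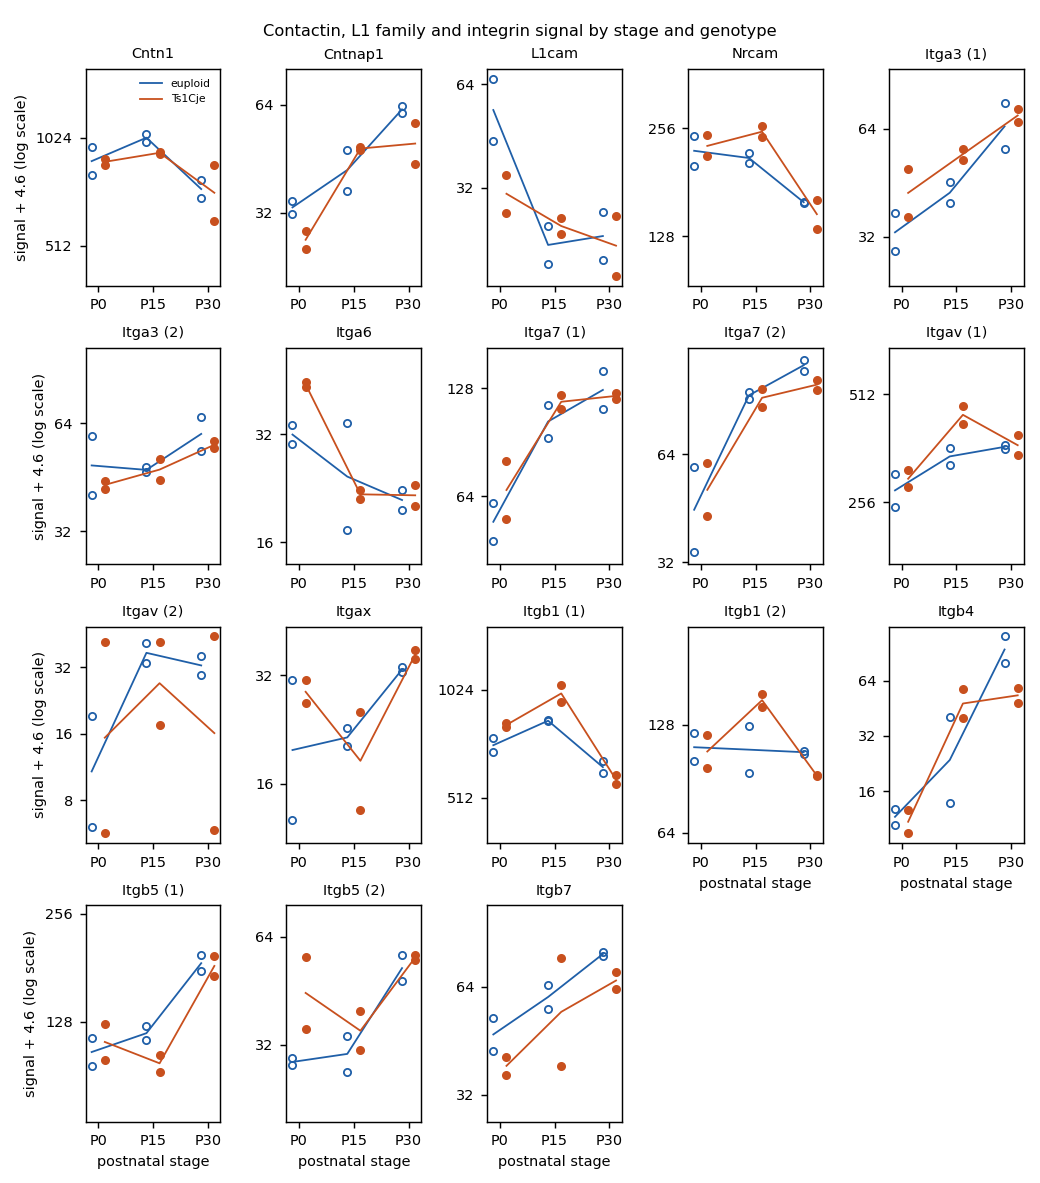
Signal + 4.6 (log axis) of the 18 tested probe sets of contactins, Cntnap1, the L1 family and integrins by stage; open blue circles are the 2 arrays of each euploid pool, filled orange circles those of each Ts1Cje pool, and lines join pool means on the log scale. Itgb4 climbs from 4.9 to 8.3 at P0 to 43.8 to 106.5 at P30 before the 4.6 is added, and the dim Itgav probe set (2) shows arrays of 1 pool far apart.

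Itgb4, which pairs with the Itga6 chain to bind laminin and anchors epithelia through hemidesmosomes, had the largest rise of any tested integrin. At P0 its signal was 5.9 and 8.3 in euploid and 4.9 and 8.0 in Ts1Cje. It was 35.8 and 9.3 against 52.8 and 35.6 at P15, and 106.5 and 75.6 against 43.8 and 53.9 at P30. Both genotypes rose, with one euploid P15 array only a little above P0. The rise was 1.58 ± 0.39 log2 units at P15 (adjusted p = 0.0170, limma) and 2.65 ± 0.39 at P30 (adjusted p = 0.000976). Here too P0 lies near the floor, and the rise to P30 was 8.78-fold with 1 added and 3.64-fold with 16 added, called in both. At P15 it was 0.84 without the Ts1Cje P15 pool (adjusted p = 0.124) and 1.49 without the Ts1Cje P0 pool (adjusted p = 0.0746), while the P30 call was kept without any 1 pool. Its alpha partner Itga6 was called lower from P0 to P30, though that call was lost under several alternatives, as given above. At P15 Itga6 was not called (-0.70 ± 0.26, adjusted p = 0.0736, limma).

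Itgb5 and Itgb7 were higher at P30 than at P0. Itgb5, which pairs with Itgav, had in its brighter probe set 91.5 and 110.9 in euploid and 95.5 and 121.6 in Ts1Cje at P0, 109.3 and 119.5 against 98.9 and 88.2 at P15, and 191.6 and 172.2 against 166.9 and 190.6 at P30. The P30 arrays stood clear of all the others. It was the 1 member called between P15 and P30, at 0.77 ± 0.17 log2 units or 1.71-fold (adjusted p = 0.0385, limma), and it was also higher at P30 than at P0 (0.76 ± 0.17, adjusted p = 0.00698). The P15 to P30 call was lost without the euploid P30, Ts1Cje P15 or Ts1Cje P30 pool (adjusted p = 0.151, 0.0979 and 0.281), with no filter (0.0626) or without the intensity trend (0.0671), and that from P0 without the Ts1Cje P30 pool (adjusted p = 0.0678). The second Itgb5 probe set, also marked by the maker as one that can hybridise to related sequences, gave 0.74 ± 0.22 from P15 to P30. It was not called (adjusted p = 0.104, limma). All 3 tested choroid plexus markers rose between P15 and P30 as well, with summed signals of 147 to 179 and then 789 to 1080, and their part in the Itgb5 result was not tested.

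Itgb7, a lymphocyte integrin chain, went from 37.8 and 47.8 in euploid and 31.8 and 36.2 in Ts1Cje at P0 to 51.0 and 60 against 72.5 and 33.9 at P15, and 73.4 and 75.3 against 65.7 and 58.5 at P30. It rose by 0.77 ± 0.18 log2 units to P30 (adjusted p = 0.00942, limma), a call lost without the euploid P30 or Ts1Cje P30 pool (adjusted p = 0.0811 and 0.0708). Neither step passed alone, 0.42 ± 0.18 to P15 and 0.34 ± 0.18 from P15 to P30 (adjusted p = 0.111 and 0.300, limma). The second Itgb7 probe set stayed between 0.4 and 6.3. Of 3 tested markers of lymphocytes and neutrophils 1 was called higher by P30. Signals of all 11 on the array, most of them untested, summed to 65.0 to 120 at P0 and 130 to 242 at P30. The part of these cells in the result was not tested. The myeloid and platelet chains Itgb2 and Itgb3 were under the filter, at 0.7 to 8.8.

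Itgb1, the common partner of most laminin, collagen and fibronectin receptors, was not called at any stage. The brighter of its 2 probe sets had 744.2 and 681.1 in euploid and 823.1 and 800.4 in Ts1Cje at P0, 835.9 and 831.8 against 943.4 and 1047.5 at P15, and 595.4 and 641.3 against 587.3 and 553.3 at P30. Those arrays did not overlap between any stages, with P15 the highest and P30 the lowest. The difference from P15 to P30 was -0.61 ± 0.14 log2 units and just missed the threshold (adjusted p = 0.0511, limma). In the other Itgb1 probe set it was -0.36 ± 0.20 (adjusted p = 0.324). The brighter probe set is marked by the maker as one that can hybridise to related sequences.

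**Figure D4:**
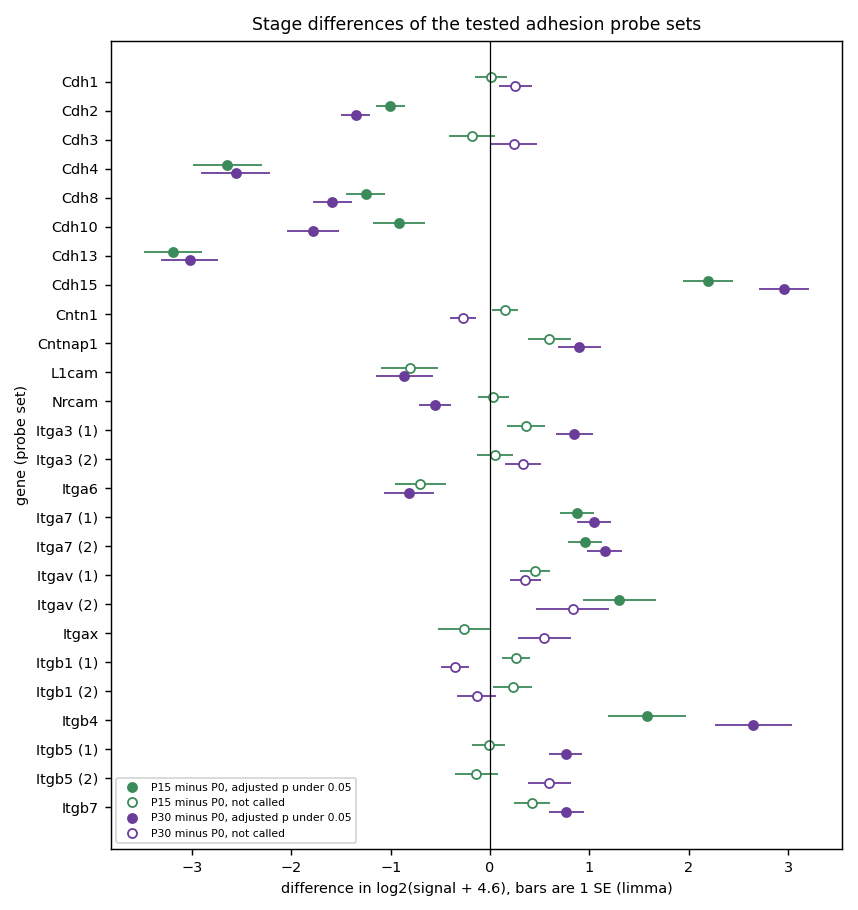
Differences from P0 in log2(signal + 4.6) of the 26 tested member probe sets, at P15 (green) and P30 (purple); bars are 1 SE from limma, and filled points were called. Cdh13 lies at -3.19 and -3.03, Cdh15 at 2.19 and 2.96, and Itgb4 at 1.58 and 2.65.

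Partners of these proteins were read from lists chosen by function, and the genes named from them were picked after their values were seen. In the list of catenins and cadherin partners, 2 of 12 tested genes rose and 2 fell by P15, and 3 rose and 3 fell by P30, with a median of 0.02 and 0.05. Ctnna2, the neuronal alpha catenin, fell by 1.99 ± 0.16 log2 units to P15 (adjusted p = 7.99e-05, limma), whereas Jup, or plakoglobin, rose by 1.67 ± 0.15 to P30 (adjusted p = 8.33e-05). Ctnnb1, beta catenin, was -0.29 ± 0.19 at P15 and not called, and -0.63 ± 0.19 at P30, where it was (adjusted p = 0.0297). The other gene of this list that fell by P15 was Ctnnd2, a delta catenin of neurons, by 0.57 ± 0.13 (adjusted p = 0.0119).

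In the list of matrix ligands of integrins, 7 of 19 tested genes fell and 2 rose by P15, and 11 fell and 4 rose by P30, with a median of -0.35 and -0.91. Npnt (nephronectin, a ligand of the integrin of Itga8) fell by 3.16 ± 0.33 log2 units to P30 (adjusted p = 0.000165, limma), and the basement membrane genes Nid2 and Col4a1 fell by 2.86 ± 0.33 and 1.75 ± 0.17. The laminin chains did not move as one: Lama2 rose by 0.70 ± 0.22 and Lamb1 by 1.05 ± 0.23, while Lama4 fell by 0.91 ± 0.22. Between P15 and P30, 6 of the 19 fell and 0 rose. Summed signals of the 10 meninges markers on the array, 2 of which are also in this list, were 2751 to 4304 on the P0 arrays and 4819 to 6470 on the P30 arrays. That difference lies in Ptgds: the other 7 tested markers summed to 1971 and 1962 in the euploid pools and 2834 and 2108 in the Ts1Cje pools at P0 and P30. By P30 Ptgds was called higher and Col1a1 and Col3a1 lower, and the part of the meninges in the ligands' fall was not tested.

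Integrin adaptors had 5 of 18 tested genes higher and 0 lower at P15, and 5 higher and 3 lower at P30, with a median of 0.27 and 0.31. Itgb1bp1, which binds the tail of the beta 1 chain, rose by 1.40 ± 0.18 log2 units to P15 (adjusted p = 0.000894, limma), and Fyn, a kinase of the Src family, fell by 1.12 ± 0.14 to P30 (adjusted p = 0.000383). Partners of contactins and L1 proteins split widely, with 5 of 18 higher and 8 lower at P15 and 4 higher and 8 lower at P30. Kcna1, a potassium channel placed beside the node, rose by 5.77 ± 0.18 to P15 (adjusted p = 2.92e-07, limma), and Mag, a myelin protein, by 5.07 ± 0.36 (adjusted p = 4.88e-05). Chl1 and Ncam1, relatives of L1cam, fell by 1.35 ± 0.18 and 1.09 ± 0.13 to P15 (adjusted p = 0.000960 and 0.000562). In the list of neurexin and neuroligin partners, 2 of 11 rose and 2 fell by P15, and 3 rose and 3 fell by P30. Cbln1, the granule cell protein that bridges neurexins to a Purkinje cell receptor, rose by 2.31 ± 0.13 to P15 (adjusted p = 1.36e-05, limma).

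The other marker lists give the setting of these changes. By P15, 7 of 10 tested markers of Bergmann glia and astrocytes rose (median 2.12) while of 5 granule cell progenitor markers 2 fell and 1 rose (median -0.57). Of 9 tested endothelial markers 1 rose and 2 fell, and summed signals of the 10 on the array were 741 to 886 at P0 and 779 to 929 at P30. In the brainstem list 2 of 4 tested genes fell. The summed signal of the 6 on the array was 562 in the euploid P0 pool, 230 in the Ts1Cje P0 pool and 83.3 to 160 on all later arrays. This sum and the cadherins that fell were thus highest at P0. Between the P0 pools the sum was higher in euploid, as was Cdh10, while Cdh2, Cdh4, Cdh8 and Cdh13 had higher mean signals in Ts1Cje. The tested brainstem genes themselves split at P0. Hoxa5 (251.7 in euploid, 31.35 in Ts1Cje) and Hoxb5 (169.6 and 28.55) were higher in euploid. Slc6a4 (73.4 and 106.2) and Th (43.3 and 51.3) were higher in Ts1Cje. The part of brainstem tissue in the cadherins' fall was not tested. Among 4 tested blood and platelet genes 1 rose by P15. Summed signals of the 8 on the array were 2685 to 8212 on the P15 arrays, with the euploid pool at 7377 and the Ts1Cje pool at 2917. The euploid pool was also the higher one at P0 (4838 against 3444) and at P30 (4829 against 2827).

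Ts1Cje was compared with euploid over the 3 stages to ask whether adhesion genes outside the trisomic segment differ with the genotype. No member was called, and over all probe sets 0% were called, 0 of 7453, while 217 (2.91%) had an unadjusted p under 0.05. No tested member probe set had one: the smallest p among them was 0.0834, for Cdh13 (0.47 ± 0.24 log2 units higher in Ts1Cje, adjusted p = 0.9999, limma). Each gene was ranked by its brightest probe set. The other genes with the smallest p on the higher side were Itga3 (0.27 ± 0.15), Itgav (0.17 ± 0.12), Itga7 (0.14 ± 0.14) and Itgb1 (0.11 ± 0.12). On the lower side they were Itgb7 (-0.22 ± 0.14), Cdh10 (-0.25 ± 0.21), L1cam (-0.24 ± 0.23), Cntnap1 (-0.14 ± 0.18) and Cdh3 (-0.11 ± 0.19). The SE of a member's genotype difference was 0.10 to 0.32 log2 units, so differences of that size were not detectable with 6 pools. Dimmer probe sets could differ from these. Itgb5 on chromosome 16 gave -0.07 ± 0.14 in its brighter probe set and 0.32 ± 0.18 in the other. Itgav gave -0.32 ± 0.30 and Itga3 -0.09 ± 0.15 in theirs, the opposite sign to their brighter ones. With no filter on signal the members under it were not called either. Some were larger for their SE than Cdh13: Itgb2 (0.61 ± 0.17), the faintest Itgav probe set (0.65 ± 0.23) and Cntn4 (-0.43 ± 0.18), each at adjusted p = 0.9991 (limma). Their mean signals were low, at 3.9, 10.8 and 5.9.

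A change of the genotype difference with postnatal day was also fitted. No member was called, and 0% of all probe sets were (0 of 7453, and 193 or 2.59% at an unadjusted p under 0.05). Among the 26 members 2 had an unadjusted p under 0.05. Cdh4 changed by -1.28 ± 0.58 log2 units over 30 days, and the dim Itgav probe set by -1.52 ± 0.57 (both adjusted p = 0.9997, limma). The other named values were L1cam 0.72 ± 0.56, Cdh13 0.55 ± 0.61, Cdh3 0.41 ± 0.48, Itgb4 -0.74 ± 0.73 and Cdh15 -0.51 ± 0.52, none called.

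Within 1 stage each genotype is a single pool, so values are descriptions with no test. A difference of at least 1.5-fold on the log2 scale with no overlap of the 2 against 2 arrays was seen for 3 of 26 member probe sets at P0 (11.5%), 1 at P15 (3.85%) and 4 at P30 (15.4%). The same held for 7.41% of all tested probe sets at P0, 5.15% at P15 and 4.41% at P30. At P0 these were Cdh4 (0.64 higher in Ts1Cje), the dimmer Itgb5 probe set (0.64 higher) and L1cam (-0.81). At P15 it was Cdh4 (0.75), and at P30 Cdh13 (0.79), Cdh4 (-0.64), Cdh10 (-0.61) and Itgb4 (-0.83). Cdh4 was thus the 1 member with differences of that size in opposite directions at 2 stages, as were 1.21% of all tested probe sets. At P15 its difference rests on 1 Ts1Cje array (25.0 beside 7.9) and at P30 on 1 euploid array (22.7 beside 9.5), and the second Cdh4 probe set gave 0.49, -0.61 and -0.60 at P0, P15 and P30. L1cam lies on the X chromosome and differed at P0, where Xist was low in both pools, and the part of sex in that difference was not tested. Over the 3 stages 6 member probe sets were higher in Ts1Cje at every stage and 2 lower, of 26, and 20.8% of all probe sets kept 1 direction.

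**Figure D5:**
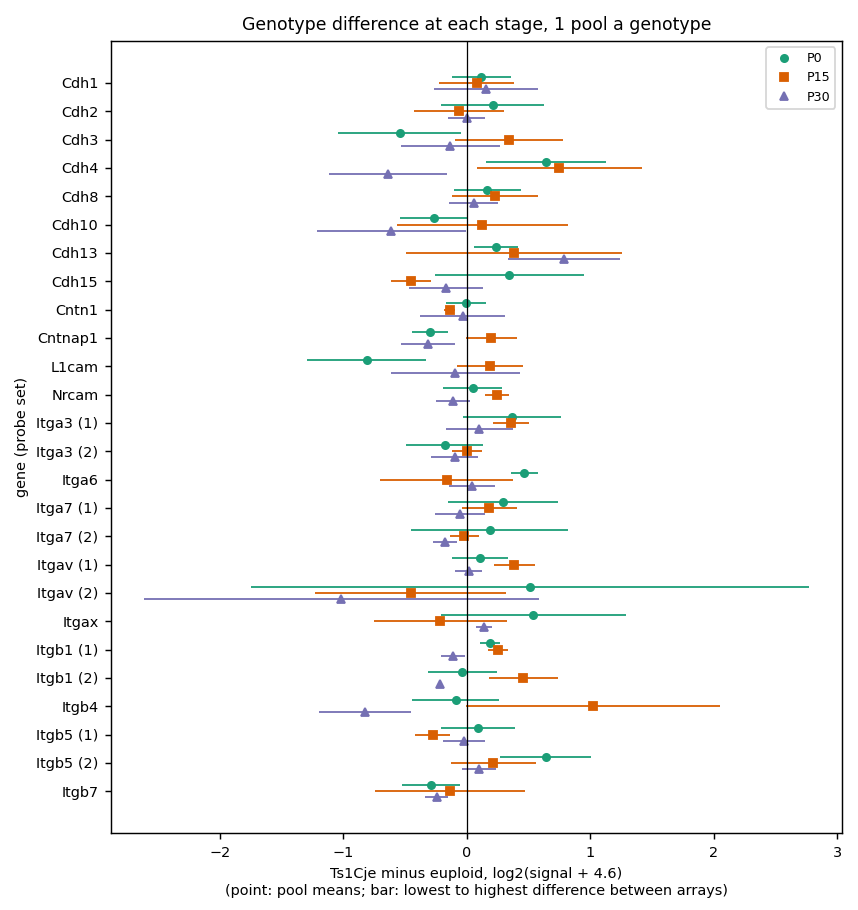
Ts1Cje minus euploid in log2(signal + 4.6) for the 26 tested member probe sets at P0 (circles), P15 (squares) and P30 (triangles), 1 pool a genotype; points are differences of pool means and bars run from the lowest to the highest difference between single arrays. Cdh4 lies at 0.64, 0.75 and -0.64.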

How the data were processed

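RNA pools of euploid and Ts1Cje cerebella at P0, P15 and P30 were each hybridised to 2 Affymetrix arrays of 12488 probe sets. The deposited values are linear signal intensities made by the authors with MAS5, per the submitters' processing notes; neither its version nor its settings were named there. Each array's trimmed mean was 100.1, so the arrays had been scaled to 1 level, and none was scaled again. Median signals of 30.4 to 36.2 put many probe sets near background, which limits precision.

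Symbols came from the platform annotation (10855 probe sets with 1 symbol, 396 with several, 1237 with none; 10839 matched the RefSeq table of GRCm38.p6). Tests left out 66 control probe sets and any with a mean signal below the 40th percentile (20.1). Values were taken as log2(signal + 4.6), 4.6 being the 20th percentile of all values, and the 2 arrays of a pool were averaged. Nothing in the labels ties arrays to further animals, and no genotype at a stage has a second pool. The p-values therefore rest on how far the pools depart from added effects of genotype and stage. Spread between pools and stage effects that differ by genotype cannot be told apart in that departure. limma 3.58.1 (R 4.3.3) fitted genotype and stage over 6 pools with an intensity trend (residual df 2, prior df 6.39), and a second fit added genotype by day. Tests were two-sided with Benjamini-Hochberg adjustment, and the fit was tested on simulated data. Array 2 minus array 1 correlated over 0.1 in 7 of 15 pairs of pools (-0.12 to 0.35), short of every pair, so the hybridisation number was not used as a pairing.

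The members and lists were chosen with earlier results of these data known. Named member genes were up to 10 called rises and 10 falls per stage comparison that moved alike in both genotypes, the smallest p for genotype (5 higher, 5 lower) and for genotype by day (3 and 3), and the brightest gene of a family; other members are described to account for all. Partner and marker lists were described by counts and medians. Alternatives were pseudocounts of 1 and 16, no filter or one at the 60th percentile, quantile normalization, no trend, 12 arrays with the pool as a random block, and leaving out each hybridisation or pool.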

Additional observations from a re-analysis of the deposited data

Results flagged for a closer look

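Cdh4 differed between Ts1Cje and euploid by more than 1.5-fold with no overlap of arrays at every stage, and not in 1 direction. The difference was 0.64 log2 units at P0 (signals of 90.3 and 137.1 in Ts1Cje, 60.2 and 80.5 in euploid), 0.75 at P15 (7.9 and 25.0 against 7.2 and 6.5) and -0.64 at P30 (8.0 and 8.0 against 9.5 and 22.7). The P15 value rests on 1 Ts1Cje array (25.0) and the P30 value on 1 euploid array (22.7). A second Cdh4 probe set, under the filter, gave 0.49, -0.61 and -0.60, so the 2 probe sets have opposite signs at P15. Each value compares 1 pool with 1 pool, and the opposite directions at single stages were not tested. A steady change of the difference with postnatal day was tested and was not called (-1.28 ± 0.58 over 30 days, adjusted p = 0.9997, limma).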

How the results depend on the processing

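Of the stage calls, those of Cdh13, Cdh4, Cdh8, Cdh2, Cdh15 and both Itga7 probe sets at P15 and at P30, and of Cdh10 and Itgb4 at P30, were kept under every alternative in which the probe set was tested; the 60th percentile filter leaves most of these probe sets untested. That filter (58.8) tests fewer members and gave 2 higher and 1 lower at P15 against P0 (5 and 5 as reported) and 3 and 2 at P30 (8 and 8). With no filter, 9 were called lower at P15, and 0 higher from P15 to P30 (1 as reported), also 0 without the intensity trend. A pseudocount of 16 gave 1 lower from P15 to P30 (0 as reported). Arrays fitted singly with the pool as a random block gave 3 higher and 3 lower there, and adding the replicate block for the hybridisation number gave 2 and 3. Over all probe sets the replicate block gave 392 higher and 506 lower, against 120 and 233. The correlation within pools in the random block fit was only 0.085, and -0.078 with genotype by day. The 2 arrays of a pool thus counted nearly as separate replicates there, and the larger counts carry that limit. With 1 hybridisation or 1 pool left out, counts at P15 were 3 to 6 higher and 4 to 6 lower, at P30 5 to 9 and 5 to 8, and from P15 to P30 0 to 1 and 0 to 4. No alternative called a member for genotype or genotype by day. Over all probe sets, calls from P15 to P30 ran from 36 to 450 higher and 62 to 566 lower. Without the Ts1Cje P0 pool 700 were lower at P15 (1074 as reported), and without the Ts1Cje P30 pool 900 were higher and 930 lower at P30 (1446 and 1458). Genotype calls were 14 with the random block, 6 with the replicate block, 6 without either P30 pool and 1 without either P0 pool, against 0; genotype by day gave 4 with the random block and 9 without the first hybridisation. That last comparison could not be fitted with a pool left out. Small uncalled differences changed sign when a hybridisation or pool was left out. For Ts1Cje minus euploid the ranges were Cdh10 -0.54 to 0.039, Cdh2 -0.054 to 0.15, Cdh3 -0.34 to 0.10, Cntn1 -0.18 to 0.062, Itgb7 -0.48 to 0.034, L1cam -0.45 to 0.045 and Nrcam -0.033 to 0.14. For genotype by day they were Cdh2 -0.46 to 0.039, Cdh3 -0.10 to 0.92, Cntnap1 -0.22 to 0.18 and Nrcam -0.34 to 0.024, with Cntnap1 at 0.0020 under a pseudocount of 1 and 0.063 after quantile normalization. From P15 to P30 Itgav ran from -0.26 to 0.066, and at P15 against P0 Nrcam from -0.11 to 0.17 and -0.012 after quantile normalization. The cause of these changes was not tested.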

Other observations

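Clustered protocadherins of the alpha group, which give neurons surface identities, share exons, and 8 probe sets that list 9 or 14 of these genes each fall outside the members for that reason. Of these, 7 were tested: 2 were called lower and 0 higher at P15 against P0, and 4 lower and 0 higher at P30 against P0. Over all tested probe sets 14.4% were called lower and 13.6% higher at P15, and 19.6% and 19.4% at P30. Because exons are shared, the 7 are not independent of each other. The 5 not called at P15 differed by -0.37 to 0.22 log2 units (adjusted p = 0.218 to 0.934, limma). The one with the largest fall had signals of 695.5 and 603.9 in euploid and 665.3 and 605.4 in Ts1Cje at P0, 415.4 and 363.3 against 363.4 and 324.4 at P15, and 300.8 and 261 against 255.4 and 260.8 at P30. No array of one stage overlapped with an array of another. It fell by 0.80 ± 0.14 log2 units to P15 (adjusted p = 0.00325, limma) and by 1.24 ± 0.14 to P30 (adjusted p = 0.000227). A second fell by 0.75 ± 0.19 to P15 (adjusted p = 0.0197). These probe sets were picked after their values were seen, and which of the listed genes they report on cannot be told apart.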
